A study of Mus musculus with 20 samples.

Results

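The nuclear genes of the mitochondrial respiratory chain and ATP synthase were followed through 20 RNA-seq libraries from mouse pancreatic tumours. The members were the rows of the raw count table whose symbol begins with Nduf, a subunit letter and a number, is Sdha, Sdhb, Sdhc or Sdhd, or begins with Uqcr, with Cox4 to Cox8, or with Atp5. Of 88 matching symbols, 4 that end in the pseudogene mark -ps were left out, so 84 of the 46983 genes in the table were members: 37 named for complex I, 4 for complex II, 8 for complex III, 18 for complex IV and 17 for complex V. The rule used names only and no measured value. The tumours had grown for 2 weeks from cultured KPC cells, a murine pancreatic cancer model, injected orthotopically into C57BL/6 hosts that were wild type (WT) or IL33-/- (titled IL33KO). No mouse was treated. From each host genotype there were 5 libraries of leukocytes taken from the tumour with CD45+ magnetic beads and 5 of bulk tumour. The labels name 5 WT and 5 IL33-/- hosts without tying single libraries to mice, and they place the deletion in the host and not in the injected KPC cells. P-values below therefore reflect how these libraries vary, part of which can be technical.

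The respiratory chain passes electrons from NADH (complex I) and succinate (complex II) through coenzyme Q, complex III and cytochrome c to oxygen at complex IV, and 3 of its complexes pump protons that drive ATP synthase, complex V. Complexes I, III, IV and V are built from subunits of both genomes: the mitochondrial DNA encodes the membrane-embedded core, and the nucleus encodes all the other subunits, which are imported into the organelle. Complex II is wholly nuclear. In leukocytes the balance between respiration and glycolysis is known to differ between cell states, and macrophages are among the cells in which this has been studied most.

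Complex I members were counted as 7 core subunits (Ndufs1 and Ndufv1 among them, which as a group carry the flavin and the iron-sulphur clusters) and 28 accessory subunits. Ndufa4 and Ndufa4l2 stand in complex I by symbol only, since the protein encoded by Ndufa4 is known as a subunit of complex IV. Complex II had its catalytic pair Sdha and Sdhb and its membrane anchors Sdhc and Sdhd. Complex III had 3 core and catalytic members (Uqcrc1, Uqcrc2 and Uqcrfs1) and 5 small ones, and complex IV had 10 ubiquitous isoforms, 7 tissue-restricted isoforms and Cox7a2l, a factor that joins complexes into supercomplexes. Complex V had 5 members of the F1 head, 4 of the peripheral stalk, 3 of the c-ring, 3 small membrane subunits, and Atp5s and Atp5sl, which are not structural subunits. All 84 members matched GENCODE M21 as protein-coding genes, and 81 passed the filter on low counts in each comparison. Cox7b2 and Cox8c had 0 counts in all 20 libraries, and Cox8b, at or near 0 in most libraries, did not pass the filter.

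Several members share sequence with other genes. In 16 members more than 20% of the 50-base stretches of the main transcript also occur in another gene, among them Atp5g2 (100%), Atp5l (68.8%), Atp5g1 (66.0%), Cox7c (53.1%) and Atp5h (50.6%), and 26 members overlap an exon of a gene on the opposite strand. Counts of these members are uncertain, because reads that fit more than 1 place were not counted and the strand setting of the counting is not given in the sources used here. Members were ranked within each complex by CPM per kilobase of the main transcript. CPM are counts scaled to library size, with factors from TMM, the trimmed mean of M values. Elsewhere CPM are not divided by length, also where several genes stand together or are summed. In sorted WT libraries the highest member per complex was then Ndufb8 with 237 CPM per kb, Sdhd with 171, Uqcrh with 555, Cox4i1 with 789 and Atp5e with 572 CPM per kb. In bulk WT libraries it was Ndufa7 (210.4), Sdhd (125), Uqcrh (299.6), Cox4i1 (478) and Atp5b (364 CPM per kb). The choice of length matters here: over all exons merged, the leading members in sorted WT were Ndufa2 (211 CPM per kb), Sdhd (171), Uqcrh (245), Cox8a (427) and Atp5a1 (258 CPM per kb).

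Promoters were read from RefSeq windows (GRCm38.p6) that run from 250 bases before to 50 bases after the start site, of which 75 were found for 69 of the 84 members. The core GCGCATGC, the site letters of nuclear respiratory factor 1 (NRF-1), a known activator of respiratory genes, occurred on either strand in 10 of the 75 windows (13.3%) against 2.71% of all 32851 windows. The letters AAGATGGC of the YY1 site occurred in 12 (16.0% against 2.75%). In 9 of those 12 windows (75.0%) the YY1 letters lay on the gene's strand with their first base 20 to 40 bases after the start, where 16.9% of the 903 YY1-bearing windows of all genes have them. This interval closely encloses the members' own sites, at 22 to 38 bases, so the shares are a description and not a test. Both windows of Atp5sl are among the 12 and hold the same site, at 26 and -53 bases from their starts. The ETS core CCGGAAGT, used by GABP (NRF-2), was in 5 windows (6.7% against 3.89%), a CCAAT box in 42.7% against 37.41%, and the Sp1 letters GGGCGG in 38.7% against 35.66%. The GCGCATGC core and its reverse complement overlap when both are present, which then gives a 10-base run. NRF-1 sites that lie before the start are shown for 7 members of 4 complexes, without that of Ndufa8, which begins 8 bases before it. They are shown because more of the members' windows hold these letters than windows of all genes do. The letters were not used in choosing the group. The YY1 letters, whose shares lie further apart, fall mostly after the start and are not printed. Capitals mark the core, and bases run 5′ to 3′ along the gene's strand.

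The windows hold 30 bases each around the core, named by gene and GRCm38.p6 position.
Ndufa6 (chr15:82354355-82354384, minus strand): ccgcggtagaGCATGCGCattgcagagccc
Ndufa11 (chr17:56717692-56717721, plus strand): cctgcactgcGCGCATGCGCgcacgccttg
Sdhb (chr4:140961207-140961236, plus strand): agcccagtggGCATGCGCcctacgggccgc
Cox6a1 (chr5:115349101-115349130, minus strand): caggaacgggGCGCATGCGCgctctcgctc
Atp5g2 (chr15:102671070-102671099, minus strand): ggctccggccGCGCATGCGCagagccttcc
Atp5k (chr5:108434430-108434459, minus strand): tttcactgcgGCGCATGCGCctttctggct
Atp5l (chr9:44920963-44920992, minus strand): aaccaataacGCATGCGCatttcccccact

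Cox5a, which is among the members with the lowest p in the comparisons below, is shown as the contrast. The 100 bases before its start hold none of the NRF-1, ETS or YY1 letters.
Cox5a (chr9:57521132-57521231, plus strand): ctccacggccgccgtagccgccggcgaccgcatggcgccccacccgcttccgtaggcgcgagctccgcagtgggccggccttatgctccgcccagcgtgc

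In Ndufa8, Uqcr11 and Uqcrc1 the NRF-1 letters begin 8 and 4 bases before and 30 bases after the start. The 10 tested members whose window holds the NRF-1 core had a median log2 fold change (IL33KO against WT, sorted leukocytes) of -0.21 and the 57 tested members with a window that lacks it -0.19, and in sorted against bulk material the medians were 0.52 and 0.47. These medians are descriptions, and no difference between the members with and without the letters was tested.

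Library depth was 51.3 to 81.0 M counts in genes (M for mega; median 59.5 M), and the members together held 0.874 to 1.19% of them. Counts of Il33 were 272 to 1084 in sorted WT, 705 to 1123 in sorted IL33KO, 4001 to 4726 in bulk WT and 3043 to 4452 in bulk IL33KO libraries; the table does not resolve exons and the labels do not say what was deleted, so these counts do not check the genotype labels. Leukocyte markers (10 genes, Ptprc among them) summed to 8472 to 11420 CPM in sorted and 651 to 1541 CPM in bulk libraries, and tumour epithelium markers (9 genes, Epcam and keratins among them) to 1053 to 2808 CPM in sorted and 6706 to 9544 CPM in bulk libraries. No marker of these lists was at 0 in a whole group, so the sorted material still held some RNA of epithelial genes. The sorted library IL33KO 3 stood apart by acinar cell markers, the digestive enzyme genes of the pancreas, which summed to 55050 CPM there and to 854 to 9533 CPM in the other 9 sorted libraries.

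The first comparison asks whether loss of host IL-33 went with a different respiratory chain programme in tumour leukocytes. Respiratory chain genes were lower by a small amount in the sorted IL33KO libraries across all 5 complexes, and no single gene passed the test. Of 81 tested members, 78 had a negative log2 fold change (IL33KO against WT), with a median of -0.20 against 0.021 over all 16731 genes tested. The summed level of the members was 12460 ± 532 CPM (SD, n = 5) in sorted WT and 10850 ± 314 CPM in sorted IL33KO libraries. The 5 WT libraries ran from 11600 to 13030 CPM and the 5 IL33KO libraries from 10430 to 11300 CPM, without overlap. As a share of the raw counts, without TMM scaling, the groups did overlap, at 0.943 to 1.08% in WT and 0.894 to 1.03% in IL33KO.

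By edgeR, 0 of the 81 members were called at an adjusted p (Benjamini-Hochberg over all genes tested) under 0.05, where 0.0120% of all genes were called in either direction. At an unadjusted p under 0.05, 32 members were lower and 0 higher by edgeR, against 6.82% of all genes lower. For 16 members every IL33KO library lay below every WT library, against 2.72% of all genes. DESeq2 called 18 members lower, where it called 3.08% of genes lower, and limma voom, weighted by sample quality, called 17 lower, where it called 1.24%; neither called a member higher. The call thus depended on the tool, with a median of -0.20 by DESeq2 and -0.26 by limma voom. With library size alone, 71 of 81 members were negative with a median of -0.114 against 0.105 over all genes, and 13 were lower at an unadjusted p under 0.05 by edgeR, against 2.18% of all genes. The distance of the members' median from that of all genes was -0.22 with either scaling. Leaving out each library in turn, edgeR called 0 members each time and the median stayed between -0.25 and -0.15. The count at an unadjusted p under 0.05 lay between 25 and 51, the latter without sorted WT 3. The share of all genes in each of these fits is not given here, so these counts cannot be set against the 6.82%.

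**Figure D1:**
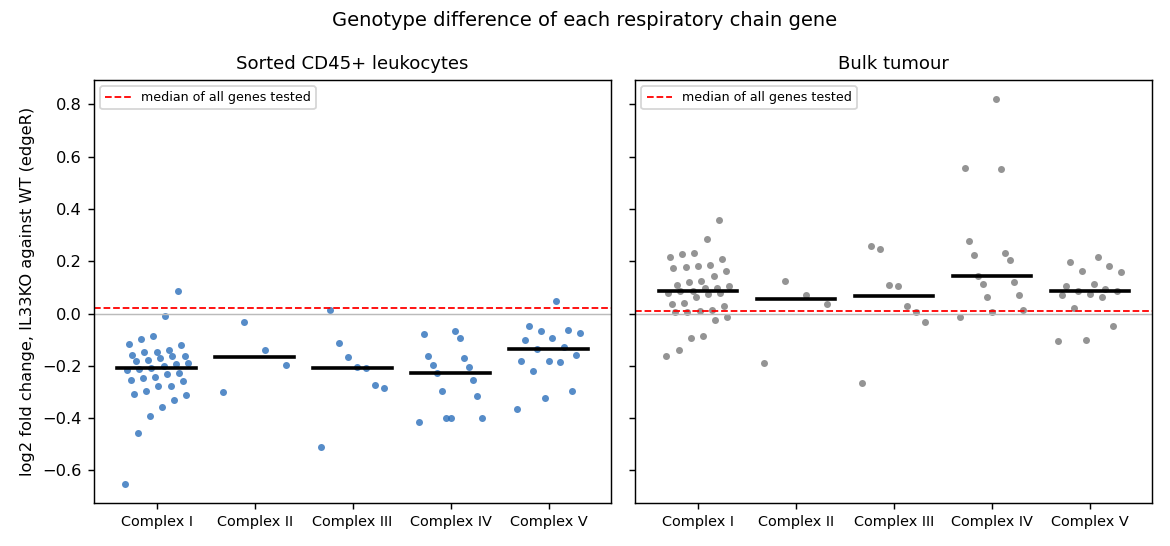
Log2 fold change (IL33KO against WT, edgeR) of every tested respiratory chain gene, by complex, in sorted leukocytes and in bulk tumour; each point is 1 gene, the black bar is the median of each complex and the dashed line is the median of all genes tested. In sorted leukocytes 78 of 81 points lie below 0, and in bulk tumour 68 of 81 lie above 0.

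Complex I, which takes electrons from NADH, had 36 of 37 members with a negative value and a median of -0.21, with 18 at an unadjusted p under 0.05 and 8 without overlap between the groups. All 28 accessory subunits were negative (median -0.21). Ndufb11, an accessory subunit of the membrane arm on the X chromosome (chrX:20615326-20617619), had 119, 127, 141, 126 and 118 CPM in the WT libraries and 103, 111, 96.2, 91.5 and 101 CPM in the IL33KO libraries, from replicate 1 to 5. The groups did not overlap, and the means were 126 ± 9.18 and 101 ± 7.28 CPM (log2 fold change -0.31, SE 0.069, edgeR adjusted p = 0.151). Ndufb7, another membrane arm subunit (chr8:83566671-83571626), had 135, 163, 129.5, 159.9 and 147 CPM in the WT libraries and 116, 115, 108, 112 and 118 CPM in the IL33KO libraries. Its IL33KO libraries were close together and all below the lowest WT library (log2 fold change -0.36, SE 0.081, edgeR adjusted p = 0.163). The exact permutation test gave p = 0.00794 for both genes, the smallest that the 252 assignments of 5 and 5 libraries allow.

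Of the 7 core subunits, 6 were negative (median -0.19), and they were unequal. Ndufs7, which carries the last iron-sulphur cluster before coenzyme Q and is named here after its value was seen, had the lowest value of the core (log2 fold change -0.46, SE 0.11, edgeR adjusted p = 0.173). It had 78.4, 95.4, 73.9, 96.5 and 86.2 CPM in the WT libraries and 67.7, 64.3, 48.9, 61.6 and 68.5 CPM in the IL33KO libraries, without overlap. Ndufs3, a core subunit of the peripheral arm, had a log2 fold change of -0.28. Ndufs1, the largest subunit of the complex, was the 1 member of complex I with a positive value (log2 fold change 0.087, SE 0.062, edgeR adjusted p = 0.594). Ndufa4, placed here by symbol only, was at -0.010 and its relative Ndufa4l2, at about 3.21 CPM in WT, at -0.65 with an adjusted p of 0.429 by edgeR.

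Complex II, the succinate dehydrogenase that also serves the tricarboxylic acid cycle, had 4 negative values out of 4 (median -0.17), spread between its catalytic subunits. Sdhb, the iron-sulphur subunit (chr4:140961203-140979193), had 149, 159, 165, 156 and 156 CPM in the WT libraries and 107, 137, 125, 132 and 131 CPM in the IL33KO libraries. Every IL33KO library was below every WT library, with the lowest value in IL33KO 1 (log2 fold change -0.30, SE 0.074, edgeR adjusted p = 0.173; exact permutation p = 0.00794). Sdha, the flavoprotein that Sdhb binds, had means of 235 ± 23.4 and 227 ± 18.6 CPM and a log2 fold change of -0.032 (SE 0.087). The anchors Sdhc and Sdhd were at -0.20 and -0.14.

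In complex III, the cytochrome bc1 complex, 7 of 8 members were negative (median -0.21). The 5 small subunits had a median of -0.27, with 3 at an unadjusted p under 0.05, and the 3 core and catalytic subunits a median of -0.17, with 0. Uqcr10, a small subunit (chr11:4701973-4704342), had 92.3, 106, 89.3, 103 and 93.5 CPM in the WT libraries and 81.8, 80.5, 75.7, 79.6 and 79.6 CPM in the IL33KO libraries. The IL33KO values were tightly grouped below all WT values (log2 fold change -0.27, SE 0.067, edgeR adjusted p = 0.173; exact permutation p = 0.00794). Uqcrq, the small subunit with the lowest fold change, had 115, 159, 137, 168 and 115 CPM in the WT libraries and 128, 102, 62.4, 82.5 and 109 CPM in the IL33KO libraries. Here the groups overlapped, with IL33KO 1 above 2 WT libraries and IL33KO 3 the lowest of all 10 (log2 fold change -0.51, SE 0.18, edgeR adjusted p = 0.297; exact permutation p = 0.0317). Uqcrc2, a core subunit, had the same mean of 153 CPM in both groups (log2 fold change 0.015).

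Complex IV, cytochrome c oxidase, held the 3 members with the lowest p. All 15 tested members were negative (median -0.23), including all 10 ubiquitous isoforms. Cox6a1, the common form of a regulatory subunit (chr5:115345642-115348981), had 206, 230.0, 268, 240.2 and 229 CPM in the WT libraries and 177, 169.9, 164, 169.8 and 191 CPM in the IL33KO libraries. No value was shared between the groups, whose means were 235 ± 22.5 and 174 ± 10.3 CPM (log2 fold change -0.41, SE 0.075, edgeR adjusted p = 0.144; exact permutation p = 0.00794). Cox8a, the common form of a small membrane subunit (chr19:7215153-7217616), had 226, 255, 319, 267 and 255 CPM in the WT libraries and 200.4, 197, 185, 202 and 206 CPM in the IL33KO libraries. Its highest WT value was in replicate 3, and every IL33KO library was below every WT one (log2 fold change -0.40, SE 0.082, edgeR adjusted p = 0.149). Cox5a, a matrix-side subunit (chr9:57521274-57532426), had 179, 227, 234, 227 and 219 CPM in the WT libraries and 144, 176, 158, 171 and 165 CPM in the IL33KO libraries. WT replicate 1 stood below the other WT libraries and still just above the highest IL33KO library (log2 fold change -0.40, SE 0.085, edgeR adjusted p = 0.151). DESeq2 gave Cox6a1 an adjusted p of 4.31e-05 and limma voom 0.0309. The matrix-side Cox5b, named after its value was seen, had log2 fold change -0.30, SE 0.069, edgeR adjusted p = 0.167, also without overlap. The 4 tested tissue-restricted isoforms were low, at 1.41 to 2.94 CPM in the sorted groups' means, with a median log2 fold change of -0.29 and 0 at an unadjusted p under 0.05.

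In complex V, ATP synthase, 16 of 17 members were negative with the smallest median of the 5 complexes (-0.14; 5 at an unadjusted p under 0.05). The 3 large F1 subunits Atp5a1, Atp5b and Atp5c1, which form the catalytic hexamer and its rotor shaft, had log2 fold changes of -0.065, -0.094 and -0.047, while the small F1 subunits Atp5d and Atp5e were at -0.36 and -0.30. Atp5d, the delta subunit of the central stalk (chr10:80138632-80145818), had 212, 228, 263, 225 and 239 CPM in the WT libraries and 184, 184, 147, 184 and 199 CPM in the IL33KO libraries. The lowest value was in IL33KO 3, and the groups did not overlap (log2 fold change -0.36, SE 0.087, edgeR adjusted p = 0.167; exact permutation p = 0.00794). The c-ring, the proton-driven rotor, is built from 1 protein encoded by Atp5g1, Atp5g2 and Atp5g3, which had -0.22, -0.18 and -0.32, each at an unadjusted p under 0.05 by edgeR. Atp5g1 (chr11:96068852-96075670) had 122, 139, 149, 137 and 132 CPM in the WT libraries and 112, 115, 120.4, 114 and 115 CPM in the IL33KO libraries, and the groups did not overlap, though the counts of Atp5g1 and Atp5g2 are uncertain for the shared sequence named above. The 4 peripheral stalk members had a median of -0.11 and the 3 small membrane subunits of -0.18, with 0 at an unadjusted p under 0.05 in both.

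**Figure D2:**
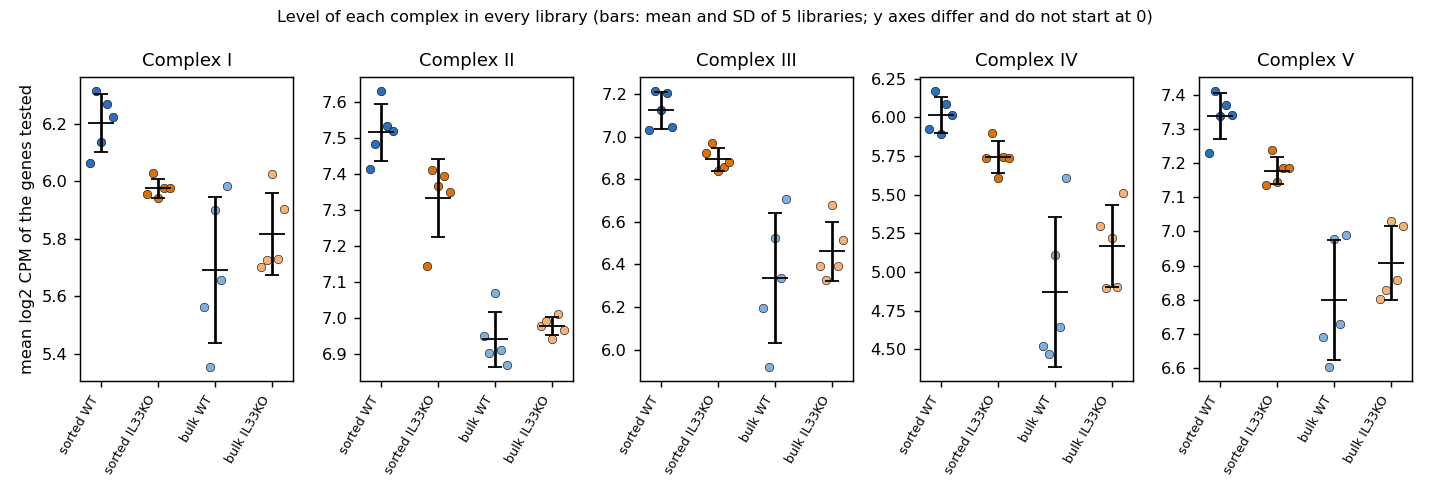
Mean log2 CPM of the tested members of each complex in every library (points, 5 per group) with the mean and SD of each group. In sorted leukocytes the IL33KO libraries lie below all WT libraries for complexes I, II and III, by a hair for complex II, and their ranges meet for complexes IV and V; in bulk tumour the genotypes overlap for every complex.

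Over libraries, the mean log2 CPM of complex I ran from 6.07 to 6.31 in sorted WT and 5.94 to 6.03 in sorted IL33KO libraries, and of complex III from 7.03 to 7.22 and 6.84 to 6.97. For complex IV the ranges, 5.89 to 6.17 and 5.61 to 5.90, met, as they did for complex V (7.23 to 7.41 and 7.14 to 7.24). Medians of single genes differed little between complexes, from -0.14 to -0.23, and no difference between complexes was tested.

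Other values moved beside this difference. The 13 subunits that the mitochondrial DNA encodes went the other way: 13 of 13 had a positive log2 fold change in sorted leukocytes (median 0.36), with 0 called by edgeR, DESeq2 or limma voom and 1, mt-Nd5, at an unadjusted p under 0.05 (0.60, SE 0.23). Their summed level was 32660 to 68920 CPM in WT and 45670 to 92950 CPM in IL33KO libraries, so the groups overlapped widely, and these transcripts were read from a poly(A) library. Macrophage markers were 14 genes, Csf1r and C1qa among them. They summed to 19550 to 22280 CPM in sorted WT and 11650 to 17980 CPM in sorted IL33KO libraries, without overlap. Of these markers 14 of 14 were negative (median -0.27) and 0 were called by edgeR. At an unadjusted p under 0.05, 6 were lower by edgeR, against 6.82% of all genes. DESeq2 called 5 lower, where it called 3.08% of genes, and limma voom 3, where it called 1.24%. B cell markers were positive in 8 of 8 (median 0.67) and T cell markers negative in 7 of 10 (median -0.067), with 0 at an unadjusted p under 0.05 in both. The part of the cell mixture in the difference of respiratory chain genes was not tested. In bulk samples, and in a mixture of sorted leukocytes alike, fewer cells of a type and less RNA per cell cannot be told apart. A fit without sorted IL33KO 1 and IL33KO 3, chosen after seeing the data, leaves out the library with acinar RNA. In it the members' median was -0.18, with 24 members lower at an unadjusted p under 0.05 and 0 called by edgeR. The share of all genes at that threshold is not given for this fit.

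In bulk tumour the host genotype went with no respiratory chain difference that passed the test, and the small shift had the opposite sign. Of 81 tested members 68 had a positive log2 fold change, with a median of 0.094 against 0.008 over all 17258 genes tested. EdgeR called 0 members, where 0% of all genes were called. At an unadjusted p under 0.05 there was 1 member, Uqcrc2, lower in IL33KO, against 3.38% of all genes lower, and 0 higher. In 0 members did the groups fail to overlap, where 0.238% of genes were lower without overlap. DESeq2 called 0 members, where it called 0.296% of genes in either direction, and limma voom called 3 higher (Cox5a, Cox6b2 and Cox7a1), where it called 11.1%, and 1 lower (Uqcrc2), where it called 8.39%. These shares of members are below those of all genes. The median over members ranged from 0.022, without bulk IL33KO 3, to 0.17, without bulk WT 5, when single libraries were left out. At an unadjusted p under 0.05, edgeR had 4 members lower and 5 higher without bulk WT 5, against 12.4% and 12.8% of all genes, and 1 lower and 8 higher with the replicate number as a block, against 6.50% of all genes higher.

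The summed level of the members was 8353 ± 841 CPM (SD, n = 5) in bulk WT and 8745 ± 553 CPM in bulk IL33KO libraries, with ranges of 7397 to 9255 and 8282 to 9530 CPM. The spread between bulk libraries was wider than between sorted ones. Uqcrc2, a core subunit of complex III (chr7:120635176-120659524), had 135, 160.1, 122, 125 and 104 CPM in the WT libraries and 106, 113, 97.1, 117 and 114 CPM in the IL33KO libraries. WT libraries 1 to 4 were above all IL33KO libraries, and WT 5 lay within their range (log2 fold change -0.26, SE 0.11, edgeR adjusted p = 0.724; exact permutation p = 0.0794). Cox5a had 82.5, 99.5, 107, 80.4 and 119.5 CPM in the WT libraries and 125, 101, 119, 101 and 132 CPM in the IL33KO libraries. WT libraries 1, 2 and 4 lay below all IL33KO libraries, and WT 3 and WT 5 within their range (log2 fold change 0.22, SE 0.14, edgeR adjusted p = 0.724).

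The complexes shared the low positive shift, with medians of 0.086 for complex I, 0.054 for II, 0.066 for III, 0.14 for IV and 0.086 for V. Within complex I, Ndufa9, an accessory subunit next to the quinone site, was at -0.14 and Ndufa2, an accessory subunit of the peripheral arm, at 0.36. In complex II, Sdha was at -0.19 and in complex III the small subunit Uqcr10 was at 0.26. In complex V, the c-ring gene Atp5g3 was at 0.20 and the catalytic Atp5b at -0.10. The edgeR adjusted p of these genes was 0.724 to 0.76. Leukocyte markers were positive in 10 of 10 in bulk IL33KO (median 0.25) and fibroblast markers in 10 of 10 (median 0.93). EdgeR and DESeq2 called 0 in either list. At an unadjusted p under 0.05, 0 and 5 were higher by edgeR, where 514 of all 17258 genes were. Limma voom called 8 and 5 higher, where it called 11.1% of all genes. The part of these markers in the shift was not tested. With the leukocyte score of each library as a covariate, the members' median was 0.032.

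Whether the genotype difference itself differed between sorted leukocytes and bulk tumour was tested as an interaction over all 20 libraries. The members' difference between the compartments had a median of -0.33, against -0.013 over 18145 genes, with 76 of 81 members negative. EdgeR called 0 members, where 0% of genes were called; 20 members were lower and 0 higher at an unadjusted p under 0.05, against 5.15% of genes lower. DESeq2 called 0 members, where 0.00562% of genes were called lower, and limma voom called 43 lower, where 10.3% of genes were. The median was -0.49 for complex IV, -0.34 for I, -0.28 for III, and -0.24 for both II and V. The 5 smallest p belonged to Cox5a (-0.65), Ndufs3 (-0.38), Sdhb (-0.45), Atp5g3 (-0.54) and Ndufb11 (-0.41), each with an edgeR adjusted p of 0.445. The number at an unadjusted p under 0.05 moved with single libraries of both compartments. It was 11 without bulk IL33KO 3, 12 without bulk WT 1, 13 without sorted WT 2 and 42 without bulk WT 5. The share of all genes in each of these fits is not given here, so these numbers cannot be set against the 5.15%. Macrophage markers had an interaction median of -0.585 (14 of 14 negative) and leukocyte markers of -0.39 (9 of 10 negative). Neutrophil markers had 0.61 (6 of 8 positive). EdgeR called 0 in these lists. In bulk IL33KO alone 14 of 14 macrophage markers were positive (median 0.235). The part of the cell mixture in the interaction was not tested. The sorted and bulk libraries are taken here as independent, and if they share tumours they are not.

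Between sorted leukocytes and bulk tumour most respiratory chain genes differed. By edgeR on TMM-scaled counts, 68 of 81 members were higher and 4 lower in sorted leukocytes at an adjusted p under 0.05, with a median log2 difference (sorted against bulk) of 0.48 against 0.010 over 18145 genes. These counts stand against a background of 37.4% of all genes called higher and 38.0% lower. In 23 members every sorted library was above every bulk library, where 18.6% of genes were, and in 2 members every sorted library was below, where 17.6% of genes were. The split depends on the scaling: with library size alone 12 members were higher, against 22.2% of all genes, and 17 lower, against 56.8%, the median of all genes moved to -0.47 and that of the members to -0.004, so the members stood 0.46 above all genes under library size alone and 0.47 above them with TMM. Both scalings share this distance, while the members' own median was 0.48 with TMM and -0.004 with library size alone. Within WT hosts 69 members were higher and 2 lower (median 0.58), against 33.7% and 34.3% of all genes. Within IL33KO hosts 43 were higher and 4 lower (median 0.35), against 31.3% and 31.7%.

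**Figure D3:**
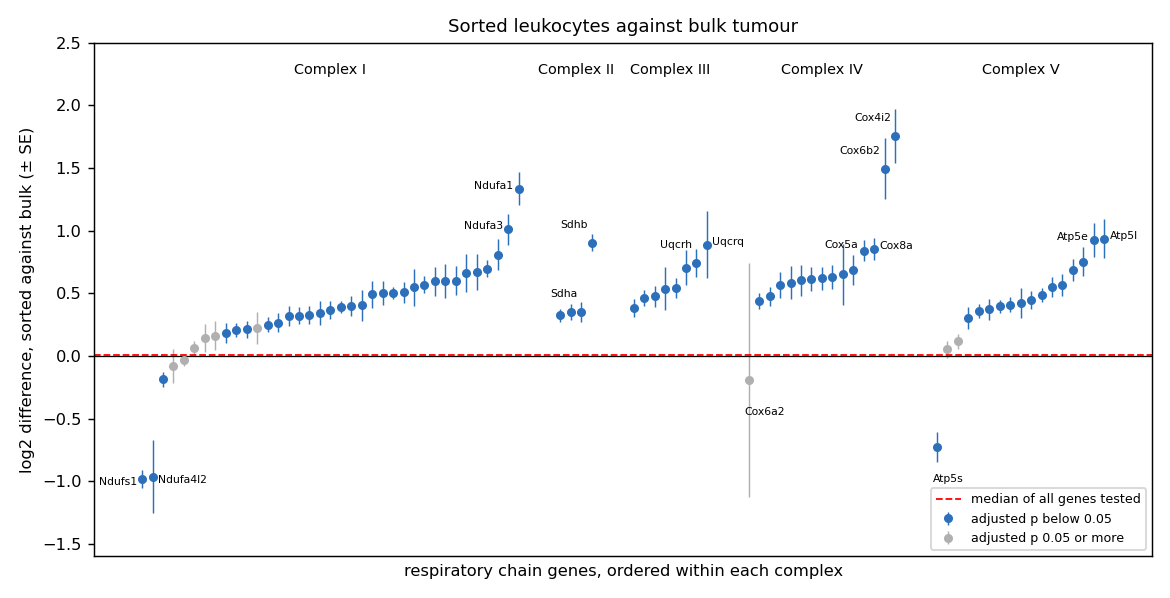
Log2 difference between sorted leukocytes and bulk tumour for each tested respiratory chain gene (± SE, edgeR), ordered within each complex; colours show whether a gene passed the adjusted p of 0.05 and the dashed line is the median of all genes. Of 81 genes 68 lie above 0 past the threshold and 4 (Ndufs1, Ndufa4l2, Atp5s and Ndufv1) lie below it.

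By complex, 28 of 37 members of complex I rose in sorted against bulk material and 3 fell (median 0.37), 4 of 4 of complex II rose (0.35), 8 of 8 of complex III (0.54), 14 of 15 of complex IV (0.62), and 14 of 17 of complex V, with 1 fall (0.42). In complex I, Ndufa1, a small X-linked membrane subunit, led with 81.7 ± 13.3 CPM in sorted WT against 28.8 ± 5.61 in bulk WT libraries (log2 difference 1.34, SE 0.13, edgeR adjusted p = 1.77e-08). The lowest sorted library of either genotype had 59.5 CPM and the highest bulk library 39.7 CPM, so the compartments did not overlap. Ndufa3, a small accessory subunit, followed with 1.01 (edgeR adjusted p = 4.77e-07).

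Ndufs1, the large subunit with iron-sulphur clusters near the flavin site, fell in sorted leukocytes. It had 71.8, 73.0, 78.6, 77.5 and 82.0 CPM in sorted WT, 75.4, 79.2, 79.8, 83.4 and 85.2 CPM in sorted IL33KO, 174, 212, 154, 161 and 125 CPM in bulk WT and 147, 159, 145, 152 and 147 CPM in bulk IL33KO libraries. All 10 sorted libraries were below all 10 bulk libraries (log2 difference -0.98, SE 0.070, edgeR adjusted p = 2.05e-10), the reverse of most of its partners in the same complex. Ndufv1, which binds the flavin and which is named here as 1 of the 4 members called lower, was only slightly lower (log2 difference -0.19, SE 0.061, edgeR adjusted p = 0.00926), and its compartments overlapped. Ndufv2, its neighbour, rose (0.25, edgeR adjusted p = 0.000849). Ndufa4l2, a hypoxia-induced relative of Ndufa4, fell (log2 difference -0.96, SE 0.29, edgeR adjusted p = 0.00531), a call that was lost within WT hosts (-0.57, adjusted p = 0.219). Ndufa4 was at 0.21, or at -0.27 with library size alone and -0.29 with the transcript length offset described below.

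In complex II, Sdhb rose most (log2 difference 0.90, SE 0.069, edgeR adjusted p = 5.85e-10) and Sdha by 0.35 with TMM, or -0.13 with library size alone. In complex III the small subunits Uqcrq (0.89) and Uqcrh (0.74, edgeR adjusted p = 6.77e-06), the hinge protein, led. Uqcrq varied most between bulk libraries among the complex III members, from 14.9 CPM in WT 2 to 124 CPM in WT 5 (log2 difference 0.89, SE 0.27, edgeR adjusted p = 0.00566). Its call was lost with library size alone (0.41, adjusted p = 0.176), with the length offset (0.24, adjusted p = 0.453) and within IL33KO hosts (0.50, adjusted p = 0.252), and that of Uqcrh with library size alone (0.26, adjusted p = 0.0634). In complex IV, Cox8a (0.85, edgeR adjusted p = 6.01e-08) and Cox5a (0.84, adjusted p = 2.41e-08) led among members with at least 5 CPM, and in complex V Atp5l (0.93, adjusted p = 2.22e-05) and Atp5e (0.93, adjusted p = 3.72e-06). With the length offset the calls of Cox8a (0.32, edgeR adjusted p = 0.114) and Atp5e (0.28, adjusted p = 0.1) were lost. Atp5l shares 68.8% of its 50-base stretches with other genes. Atp5s, a coupling factor that is not a structural subunit, fell from 3.79 ± 0.667 CPM in bulk WT to 2.38 ± 0.463 CPM in sorted WT (log2 difference -0.73, SE 0.12, edgeR adjusted p = 1.6e-05), without overlap over all 20 libraries. The c-ring genes Atp5g1, Atp5g2 and Atp5g3 were at 0.55, 0.57 and 0.31; with library size alone they were at 0.070, 0.087 and -0.18, and with the length offset at 0.064, -0.075 and -0.078.

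The mitochondrially encoded subunits were higher in sorted leukocytes in 13 of 13, all past the threshold by edgeR, with a median of 1.52, and they held 1.69 to 2.94% of gene counts in bulk and 2.47 to 8.45% in sorted libraries. This was over a median of 0.48 for the nuclear members. The difference between the compartments includes every cell type that the beads remove, and the sorted material also passed through a cell suspension and bead selection, as the labels give it; the share of these steps cannot be told apart from that of the cell types.

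Transcript length was related to the differences. The members are short, with a median main transcript of 738.5 bp against 2780.5 bp for all genes tested in sorted leukocytes, and short genes as a whole had lower values in sorted IL33KO libraries. Among genes under 1000 bp, the median log2 fold change (IL33KO against WT, sorted) was -0.23 for the 53 members, all of them negative, and -0.15 for all 1038 genes, of which 73.3% were negative. From 1000 to 2000 bp it was -0.14 for 22 members and -0.082 for all genes, and from 2000 to 4000 bp -0.064 for 6 members and 0.019 for all genes. At 4000 bp and above, where no member lies, all genes had 0.16. The members were lower than all genes in each class, by less than over the whole table. In bulk tumour the order was the reverse, with 0.12 for short members and 0.13 for all genes under 1000 bp, and sorted against bulk the values were 0.57 and 0.44. Across the 81 members Spearman's rho between length and log2 difference was 0.44 in the sorted, -0.60 in the bulk and -0.52 in the sorted against bulk comparison, a description over genes that share the same libraries. The 6 members of 2000 to 4000 bp were unequal. Sdha (2900 bp), Ndufs1 (2590 bp), Atp5a1 (2471 bp), Atp5sl (2387 bp) and Ndufa10 (2020 bp) were at -0.032, 0.087, -0.065, -0.063 and -0.12 in sorted leukocytes and at -0.19, -0.16, -0.049, 0.022 and -0.092 in bulk tumour. The longest member, Sdhc (3171 bp), was at -0.20 and 0.038.

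**Figure D4:**
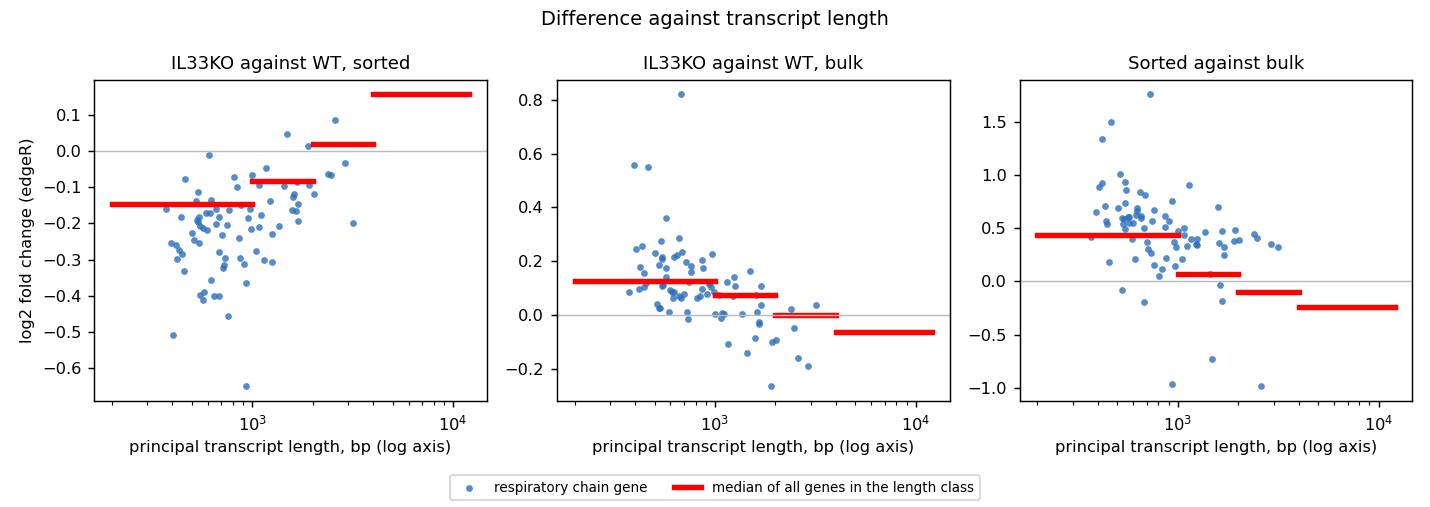
Log2 fold change of each respiratory chain gene (points, edgeR) against the length of its main transcript in bp (log axis), in the comparisons of genotypes in sorted leukocytes and in bulk tumour and of sorted against bulk; red bars are medians of all genes in 4 length classes. Short members have lower values in sorted IL33KO libraries and higher ones in bulk IL33KO libraries, and the red bars have the same slope.

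An edgeR fit with an offset that removes each library's smooth trend with length, an alternative chosen after seeing the data, gave a median of -0.12 for the members in sorted leukocytes, against 0.013 for all genes. Of 81 members 72 stayed negative and 11 were lower at an unadjusted p under 0.05, in place of 32, against 5.74% of all genes. In bulk tumour the median became 0.059 and in the interaction -0.25. In sorted against bulk it became 0.19, with 39 members higher, against 38.0% of all genes, and 10 lower, against 36.8%. No measure of RNA quality was used here. Length, RNA quality and the kind of genes that are short cannot be told apart, and their parts in the differences were not tested.

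The tissue-restricted isoforms of complex IV set 3 bulk libraries apart. Cox6a2, the heart and skeletal muscle form of Cox6a, had 0.0653, 0.0708, 0.260, 0.0970 and 10.3 CPM in bulk WT and 14.7, 0.0984, 0.218, 0.136 and 4.72 CPM in bulk IL33KO libraries. It was high in WT 5, IL33KO 1 and IL33KO 5 and at 0.065 to 0.26 CPM in the other 7 bulk libraries. Cox8b, the muscle form of Cox8, had 232, 308 and 135 counts in the same 3 libraries and 0 in the other 7. Markers of skeletal muscle (10 genes, Ckm and Acta1 among them) summed to 1491, 2912 and 898 CPM there against 7.07 to 17.3 CPM in the others. In sorted libraries the markers summed to 8.77 to 21.6 CPM and Cox6a2 had 0.834 to 4.39 CPM, so Cox6a2 was higher in every sorted library than in the 7 bulk libraries without raised muscle markers. Over all libraries its log2 difference (sorted against bulk) was -0.19 (edgeR adjusted p = 0.859), and it turned to 1.87 (adjusted p = 0.0322) without bulk WT 5 and to 0.61 (adjusted p = 0.549) without bulk IL33KO 1.

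The other forms were low as well. Cox4i2, a form of Cox4 known from lung and oxygen-sensing cells, had means of 2.63 ± 0.789 CPM in sorted WT and 0.694 ± 0.232 in bulk WT libraries (log2 difference 1.76, SE 0.22, edgeR adjusted p = 5.47e-07). Cox6b2, described as a testis form, had 1.99 ± 0.358 and 0.567 ± 0.292 CPM (log2 difference 1.49, SE 0.24, edgeR adjusted p = 1.63e-05). Cox7a1, the muscle form of Cox7a, had 1.69 ± 0.390 and 0.814 ± 0.563 CPM (log2 difference 0.65, SE 0.24, edgeR adjusted p = 0.0205), and its call was lost with library size alone (0.17), within IL33KO hosts (0.24) and with the length offset (-0.070). Their common counterparts Cox4i1, Cox6a1, Cox6b1, Cox7a2 and Cox8a had 588, 235, 276, 113 and 264 CPM in sorted WT libraries, and log2 differences from bulk of 0.57, 0.60, 0.63, 0.62 and 0.85. With library size alone those of Cox4i1, Cox6a1, Cox6b1 and Cox7a2 were 0.088, 0.12, 0.15 and 0.13.

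**Figure D5:**
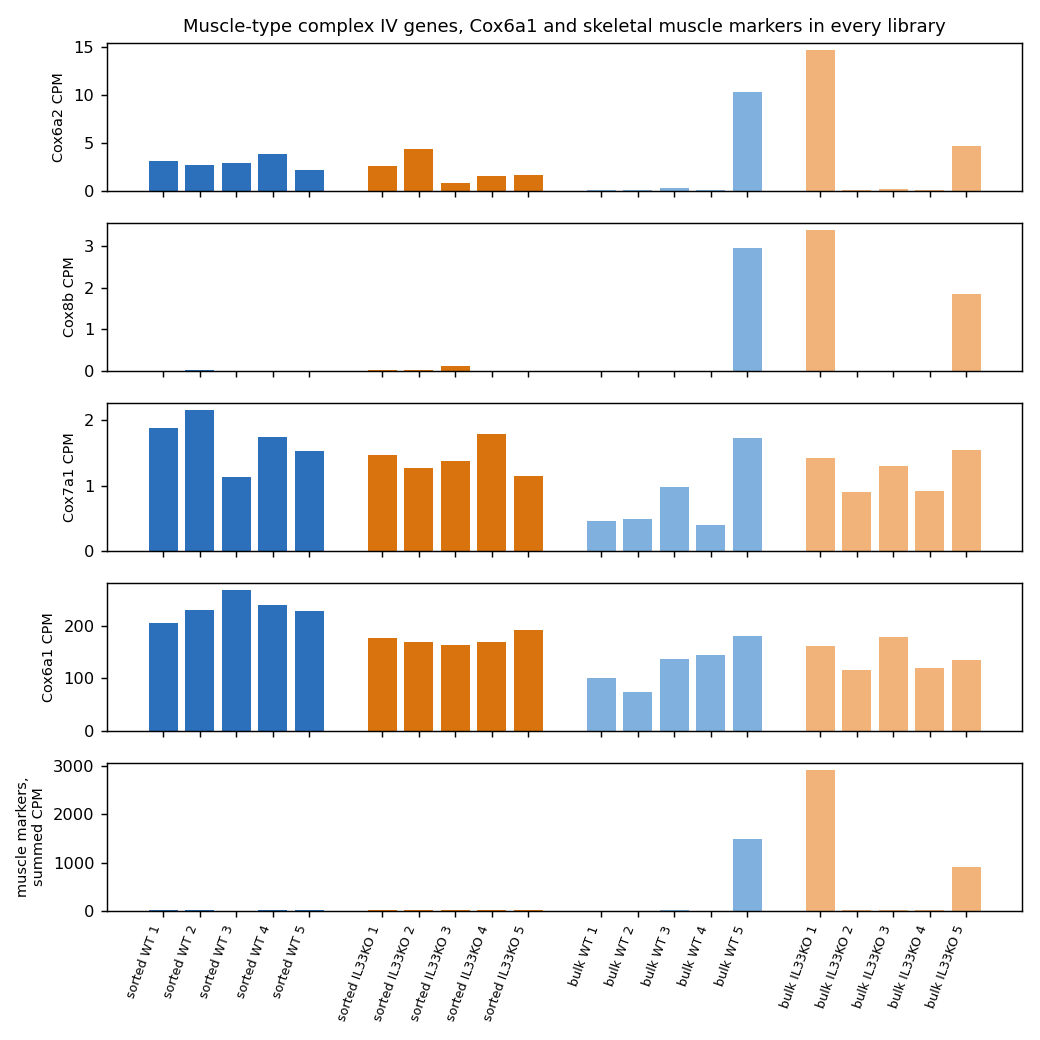
Levels in CPM of muscle-type complex IV genes and of their common counterpart Cox6a1, and the summed CPM of 10 skeletal muscle markers, as bars for each of the 20 libraries. Bulk WT 5, IL33KO 1 and IL33KO 5 are high in Cox8b, Cox6a2 and the muscle markers, with Cox6a2 at 10.3, 14.7 and 4.72 CPM.

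Genes that build or surround the chain were read from lists. In sorted leukocytes the assembly factors of complex I had a median log2 fold change (IL33KO against WT) of -0.072 with 12 of 15 negative. Those of complex IV had -0.18 with 13 of 20 negative. Of these 20, 7 were lower at an unadjusted p under 0.05 by edgeR, against 6.82% of all genes. Ndufaf3, an assembly factor of complex I, had 21.3 CPM in WT and 15.5 CPM in IL33KO libraries (log2 fold change -0.44, edgeR adjusted p = 0.144). The assembly factors Surf1, Cox14 and Cox19 of complex IV were at -0.22, -0.37 and -0.23. Assembly factors of complexes II and III had a median of -0.080 (7 of 10 negative) and those of complex V with its inhibitor -0.051 (2 of 4). The 5 subunit and carrier genes that the symbol rule does not take, Cyc1, Cycs and Ndufab1 among them, were negative in 5 of 5 (median -0.15). EdgeR called 0 genes of these lists. DESeq2 called 1 lower each for the complex I factors, the complex IV factors and the outside subunits. Limma voom called 1 lower each for the factors of complex I and of complexes II and III. Over all genes, DESeq2 called 3.08% lower and limma voom 1.24%.

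Mitochondrial ribosomal proteins, which translate the 13 mitochondrially encoded subunits, were negative in 70 of 77 (median -0.13). At an unadjusted p under 0.05, 26 were lower by edgeR, against 6.82% of all genes, and 13 were lower without overlap, against 2.72%. EdgeR called 0. DESeq2 called 10 lower, where it called 3.08% of genes, and limma voom 9, where it called 1.24%. Mrps12, Mrpl34 and Mrpl4 were at -0.54, -0.49 and -0.31. Enzymes of the tricarboxylic acid cycle, which supplies NADH and succinate, were nearer 0, with 12 of 16 negative and a median of -0.034, and glycolytic genes were negative in 14 of 15 (median -0.15), with 0 at an unadjusted p under 0.05 and 0 called by DESeq2 or limma voom in both lists. Sorted against bulk, glycolytic genes rose in 11 of 15 (median 0.44), tricarboxylic acid cycle genes rose in 8 and fell in 3 of 16 (0.13), mitochondrial ribosomal proteins rose in 25 and fell in 29 of 77 (0.015), complex I assembly factors rose in 4 and fell in 6 of 15 (0.008), and complex IV assembly factors rose in 8 and fell in 4 of 20 (0.14). In the same fit 37.4% of all genes were called higher and 38.0% lower. The calls of the assembly and translation factors fell on both sides of 0, as those of all genes did. Glycolytic genes and cytosolic ribosomal proteins (73 of 82 higher, median 0.55) mostly rose, as the subunit genes did (68 of 81 higher).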

How the data were processed

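The authors deposited a table of raw counts per gene from HTSeq for all 20 libraries, with no normalization, made from stranded poly(A) libraries per the labels' protocols. Tools named in the submitters' processing notes are Picard, HTSeq and DESeq, with the mm10 build; for the aligner and the strand setting, the sources used here give nothing. The 5 summary rows of the count table (26.1 to 40.5% of the reads of a library) stayed out of library sizes and tests. A second deposited table holds scaled signal, the counts divided by 1 constant per library (22924 genes, 82 of the members), and served only as an alternative.

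Groups and replicate numbers came from the sample titles. No 2 replicates agreed within sampling noise (lowest chi-square per gene 18.26). Counts were fitted in R 4.3.3 with edgeR 4.0.16 (filterByExpr, TMM factors of 0.756 to 1.25, robust glmQLFit, glmQLFTest), each compartment alone for the genotype comparison and all 20 libraries for the interaction and for sorted against bulk. Tests were two-sided, and p-values were adjusted by Benjamini-Hochberg across every gene tested, with 0.05 as the threshold. Log2 CPM used a prior count of 2. EdgeR's common coefficient of variation between libraries was 0.30 (sorted) and 0.354 (bulk). Single members were also compared with a two-sided exact permutation test over the 252 assignments of libraries. The tests were tested on simulated data first.

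Alternatives were DESeq2 1.42.0, limma voom 3.58.1 with quality weights, library size only, upper-quartile factors, no low-count filter, a replicate block, the scaled table with a pseudocount of 1, a leukocyte score as a covariate (bulk), hosts of 1 genotype only (sorted against bulk) and each library left out. The transcript length offset and the fit without sorted IL33KO 1 and 3 were added after seeing the data.

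The members and all gene lists were chosen with earlier results of these data known, so no pattern here is independent support for those results. Members named singly are those with the 2 smallest p per complex (1 in complex II) in each genotype comparison, the 5 smallest interaction p, the 2 largest called differences per complex and direction between sorted and bulk with at least 5 CPM, the tissue-restricted forms and their counterparts, the c-ring genes and the highest per kilobase; others are said to be chosen after their values were seen, or complete a group of subunits by role. Gene models and lengths came from GENCODE M21 (46488 genes matched), and 1 principal transcript per gene (APPRIS rank, then support level, then the longest coding part) gave the length. Figures were drawn with matplotlib 3.10.9 in Python 3.11.15.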

Additional observations from a re-analysis of the deposited data

Results flagged for a closer look

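Of 152 groups of 5 libraries examined (named members and complex means), 8 held a library whose gap to the nearest other library was over 0.71 of the range of its group, where chance alone flags about 1 in 20 groups. The number flagged is near that rate, so the groups are listed as a description. In the muscle forms of complex IV, Cox6a2 had 10.31 CPM in bulk WT 5 against 0.065 to 0.26 CPM in the other 4 bulk WT libraries, and Cox8b had 2.971 CPM there against 0. In sorted WT libraries, Cox5a had 178.9 CPM in replicate 1 against 219 to 234 CPM in the others, and Cox6b2 had 1.357 CPM in replicate 3 against 2.04 to 2.23 CPM. In sorted IL33KO libraries, Ndufa1 had 88.23 CPM in replicate 2 against 59.5 to 66.8 CPM, Atp5l had 162.3 CPM in replicate 3 against 193 to 195 CPM, and the mean log2 CPM of complex II was 7.146 in replicate 1 against 7.351 to 7.413. Sdhb had 88.37 CPM in bulk IL33KO 1 against 76.5 to 79.8 CPM in the other bulk IL33KO libraries.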

How the results depend on the processing

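In sorted leukocytes the count of members called lower in IL33KO was 0 by edgeR, 18 by DESeq2 and 17 by limma voom, and the median log2 fold change of the members (-0.20) became -0.114 with library size only and -0.116 with the length offset. In bulk tumour limma voom called 1 lower and 3 higher in place of 0, and in the interaction 43 lower in place of 0. For these counts the cause was not tested. Sorted against bulk, the counts of 68 higher and 4 lower became 12 and 17 with library size only (median -0.004 in place of 0.48) and 39 and 10 with the length offset (median 0.194), 2 were lower within WT hosts, and 43 were higher within IL33KO hosts. Negative values were held by 7 of 81 members, by 41 with library size only and by 26 with the length offset. Among the singly named members, those that turned with library size only were Sdha (-0.128), Ndufa4 (-0.27) and Atp5g3 (-0.175). With the length offset they were Ndufa4 (-0.287), Cox7a1 (-0.07), Atp5g2 (-0.075) and Atp5g3 (-0.078). Cox6a2 turned from -0.19 to 3.89 with limma voom and 2.301 on the scaled table, and ran from -0.392 to 1.871 with single libraries left out, the last without bulk WT 5.

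Deviations of same-numbered sorted and bulk libraries from their group means correlated at -0.154 to 0.172 in WT and at -0.262 to 0.3 in IL33KO. A leukocyte fraction and a whole tumour of the same mouse need not deviate alike, so these values cannot show whether tumours were shared. Between genotypes, where no mouse is shared, the correlations ran from -0.195 to 0.591. The main fits did not pair libraries by number, because the labels do not tie libraries to mice. With the number as a replicate block the calls were 0 in both genotype comparisons and the interaction, and 68 higher and 4 lower in sorted against bulk, with medians of -0.186, 0.10, -0.317 and 0.485.

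With single libraries left out, the median over members ran from -0.247 to -0.152 in sorted leukocytes, and the calls stayed at 0 in both genotype comparisons and the interaction. The low counts of the tissue-restricted forms limit their precision. Over all genes, replicate libraries differed by more than counting error (lowest chi-square per gene 18.26).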

Other observations

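Genes known to control mitochondrial biogenesis did not share the members' sign in sorted leukocytes. Of 14 tested regulators 10 were positive (median log2 fold change 0.060, IL33KO against WT), where 8990 of all 16731 genes were (median 0.021). At an unadjusted p under 0.05, 4 were higher by edgeR, where 1015 of all genes were. EdgeR called 0, and DESeq2 and limma voom called 1 higher each, where they called 172 and 186 of all genes higher. Gabpb2, which encodes a partner of the ETS factor GABP, had means of 47.1 CPM in WT and 65.2 CPM in IL33KO libraries (log2 fold change 0.48, SE 0.069, edgeR adjusted p = 0.0768). Sorted against bulk, 3 regulators were higher and 7 lower (median -0.17), against 37.4% and 38.0% of all genes.

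Cytosolic ribosomal protein genes were negative in 70 of 82 in sorted IL33KO libraries (median -0.084). At an unadjusted p under 0.05, 3 were lower by edgeR, against 6.82% of all genes. EdgeR called 0, DESeq2 1 lower, against 3.08% of all genes, and limma voom 1 lower, against 1.24%. Sorted against bulk, 73 of 82 were higher and 2 lower (median 0.55), against 37.4% and 38.0% of all genes. In bulk IL33KO 62 of 80 were positive (median 0.074). Hypoxia response genes were negative in 7 of 11 in sorted (median -0.14) and 8 of 11 in bulk IL33KO libraries (median -0.14), with 0 at an unadjusted p under 0.05 in both by edgeR. Neutrophil markers were split in sorted libraries, with 4 negative and 4 positive (median 0.26). Endothelial markers were positive in 7 of 8 (median 0.33, with 1 lower at an unadjusted p under 0.05 by edgeR, against 6.82% of all genes). Markers of pericytes and smooth muscle were positive in 7 of 8 (median 0.18), and fat cell markers negative in 3 of 4 (median -0.15). Each of these lists had 0 called by edgeR.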
